A study of Mus musculus with 36 samples.

Results

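The microglia-depleting diet PLX5622 was compared with placebo chow in the striatum of mice modelling multiple system atrophy (MSA). Libraries were chosen by title: 2 from MSA striatum on PLX5622 and 3 from MSA striatum on placebo, 5 of the 36 libraries of the series. All MSA animals here were males from the line MBP29-hα-syn, which carries its transgene under a myelin basic protein promoter, so that the transgene is driven in oligodendrocytes and not in neurons. The PLX5622 group ate chow with 1200 mg/kg of the drug from 4 weeks of age for 12 weeks, and the placebo group ate the matching chow without it (AIN-76A). Striatum of male control mice gave 2 libraries on PLX5622 and 2 on placebo, and all 9 striatum libraries were fitted together. Microglia sorted from MSA forebrain at 16 weeks of age gave 3 libraries, used as a reference outside this fit. No label ties a library to an animal or culture, and p-values therefore cover only the variation among these libraries, which may be technical. The 2 libraries of control striatum titled PLX also carry a no-treatment tag and were grouped by title.

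PLX5622 blocks CSF1R, the tyrosine kinase receptor through which CSF1 and IL34 keep microglia alive. Adult microglia that lose this signal die, and the drug is used to empty the brain of them. In multiple system atrophy oligodendrocytes hold protein inclusions, and the striatum is among the regions that degenerate. Striatum consists largely of spiny projection neurons with D1 or D2 dopamine receptors. It borders on cortex, on septum and pallidum, and on the lateral ventricle with its choroid plexus, so a dissection can carry tissue of these neighbours. In bulk tissue, fewer microglia and less RNA per microglial cell cannot be told apart.

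In MSA striatum 11 genes were lower on PLX5622 and none was higher, of 14872 genes tested (edgeR quasi-likelihood test, Benjamini-Hochberg adjusted p under 0.05, here "called"). That is 0.074% of genes called lower and 0% called higher. Of the 11, 8 belong to the microglia identity list and 1 to the complement list, and 10 were at least 10-fold higher in microglia sorted from MSA forebrain than in placebo control striatum. The exception was Kcnab3. At an unadjusted p under 0.05 stood 1054 lower genes (7.09%) and 999 higher ones (6.72%), and DESeq2 called 208 lower and 60 higher. The groups did not overlap for 2137 lower genes (14.4%) and 1857 higher genes (12.5%), and all 11 called genes are among the lower ones.

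The promoters of 4 called genes are shown because they are the regions from which the transcripts that fell start. They are the 4 of smallest p with an entry in the RefSeq promoter table (GRCm38.p6), each 250 bases before to 50 bases after the start, 5′ to 3′ on the gene's strand. Laptm5 lies at chr4:130913066-130913365 (plus strand), Slco2b1 at chr7:99706793-99707092 (minus), Vsir at chr10:60346601-60346900 (plus) and Lpcat2 at chr8:92855083-92855382 (plus). Capitals mark GAGGAA or its reverse complement TTCCTC, a core recognised by PU.1 (Spi1), the transcription factor of the myeloid lineage.
Laptm5: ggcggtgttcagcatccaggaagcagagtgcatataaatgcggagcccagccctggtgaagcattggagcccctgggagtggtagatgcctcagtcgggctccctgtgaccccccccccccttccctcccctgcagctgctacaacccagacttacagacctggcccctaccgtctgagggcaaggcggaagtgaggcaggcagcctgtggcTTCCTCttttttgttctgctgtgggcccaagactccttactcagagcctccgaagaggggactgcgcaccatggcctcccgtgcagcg
Slco2b1: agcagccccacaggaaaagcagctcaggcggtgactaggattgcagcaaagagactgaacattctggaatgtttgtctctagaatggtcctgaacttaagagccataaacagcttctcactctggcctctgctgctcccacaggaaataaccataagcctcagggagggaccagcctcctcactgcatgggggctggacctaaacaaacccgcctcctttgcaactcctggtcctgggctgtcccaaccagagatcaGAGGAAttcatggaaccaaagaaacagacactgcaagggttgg
Vsir: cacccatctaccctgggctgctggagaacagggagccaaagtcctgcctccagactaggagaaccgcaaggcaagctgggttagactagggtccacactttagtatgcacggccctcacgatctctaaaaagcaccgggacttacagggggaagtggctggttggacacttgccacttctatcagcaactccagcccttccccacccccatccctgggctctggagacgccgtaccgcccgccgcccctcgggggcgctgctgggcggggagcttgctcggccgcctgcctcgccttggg
Lpcat2: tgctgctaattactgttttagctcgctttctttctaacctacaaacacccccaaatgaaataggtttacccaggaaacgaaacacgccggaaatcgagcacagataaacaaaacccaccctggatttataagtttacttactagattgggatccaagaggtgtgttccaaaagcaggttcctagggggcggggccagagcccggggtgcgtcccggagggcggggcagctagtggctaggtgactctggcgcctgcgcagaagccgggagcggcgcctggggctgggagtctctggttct
Laptm5 and Slco2b1 each hold 1 match, and Vsir and Lpcat2 hold none of these letters in this window. Over the 18104 genes of the table with a promoter entry, 27.4% hold a match on either strand. The share was 10 of 16 for the microglia identity genes with an entry and 39.8% for the 493 promoters of genes enriched in sorted microglia. A match is a string of letters and not a binding site.

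**Figure D1:**
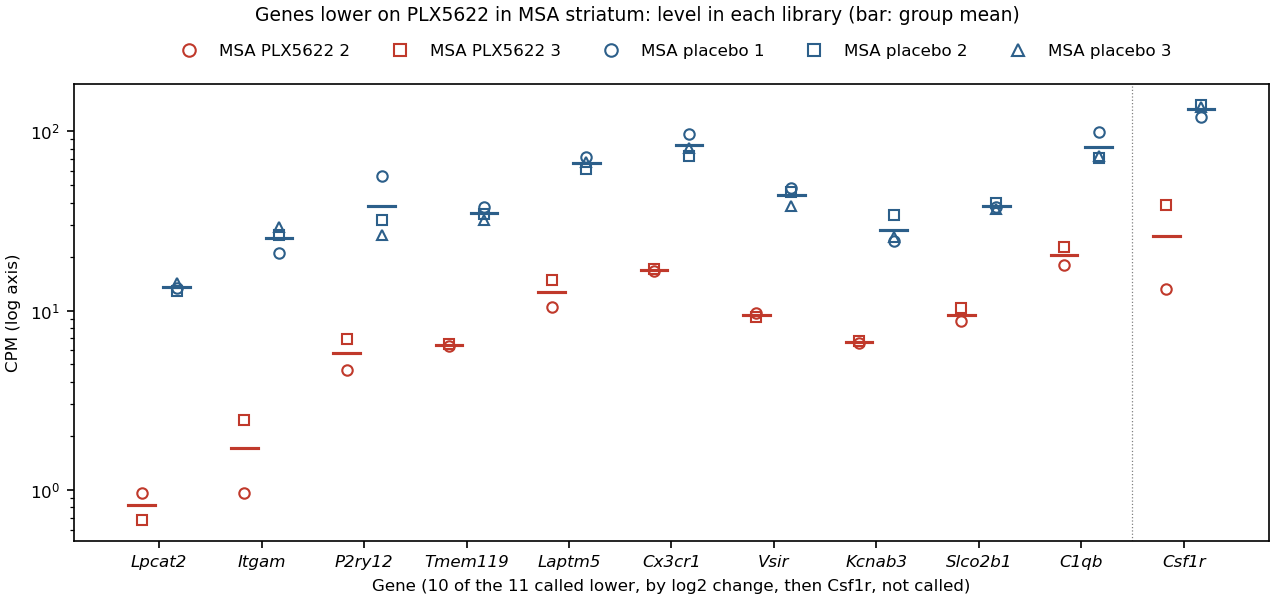
Counts scaled to 1000000 per library (CPM, log axis) in each MSA striatum library for 10 of the 11 genes called lower on PLX5622, in the order of their log2 change, and for Csf1r. Red points are the 2 PLX5622 libraries, blue points the 3 placebo libraries and bars the group means. Every red point lies below every blue point of the same gene, and the 2 red points of Csf1r, 13.1 and 38.9 CPM, stand further apart than those of most called genes.

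The called genes of smallest p encode membrane proteins of microglia. Laptm5, a lysosomal membrane protein of blood-derived cells (chromosome 4, 130913334 to 130936148), had 10.4 and 14.8 CPM on PLX5622, against 71.5, 61.4 and 67.0 CPM on placebo. It fell by 2.37 ± 0.24 on the log2 scale (SE, adjusted p = 0.00355). Tmem119, a surface protein used to tell microglia from other macrophages (chromosome 5, 113793729 to 113800352), had 6.37 and 6.51 CPM on PLX5622, against 37.9, 34.4 and 32.1 CPM on placebo. The PLX5622 libraries were nearly equal for this gene and far below all placebo libraries. Its log2 change was -2.41 ± 0.25, with the same adjusted p as Laptm5.

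Vsir encodes the immune checkpoint protein VISTA (chromosome 10, 60346851 to 60372684). It had 9.66 and 9.22 CPM on PLX5622 and 48.5, 45.6 and 38.4 CPM on placebo (log2 change -2.20 ± 0.25, adjusted p = 0.00592). Slco2b1, an organic anion transporter (chromosome 7, 99657804 to 99706842), had 8.69 and 10.3 CPM on PLX5622 and 37.6, 40.0 and 36.9 CPM on placebo (log2 change -1.98 ± 0.23). Lpcat2, an enzyme of phospholipid and platelet-activating factor synthesis (chromosome 8, 92855333 to 92919279), had 0.966 and 0.678 CPM, against 13.3, 12.8 and 14.2 CPM. Its log2 change was -4.01 ± 0.52 (adjusted p = 0.0172), the lowest among the called genes, and it rests on 10 counts in the PLX5622 group.

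The chemokine and purine receptors by which microglia sense neurons fell as well. Cx3cr1, the receptor of neuronal fractalkine (chromosome 9, 120048683 to 120068296), had 16.6 and 17.1 CPM on PLX5622, against 96.1, 72.8 and 80.9 CPM on placebo (log2 change -2.28 ± 0.31, adjusted p = 0.0216). P2ry12, the ADP receptor that guides microglial processes (chromosome 3, 59216271 to 59262985), had 4.64 and 6.92 CPM, against 55.9, 31.8 and 26.3 CPM (log2 change -2.67 ± 0.38, adjusted p = 0.0253). Placebo library 1 was the high one for P2ry12, but the PLX5622 values stood below every placebo value. Itgam, the integrin chain CD11b (chromosome 7, 128062640 to 128118491), had 0.966 and 2.44 CPM, against 20.8, 26.4 and 29.0 CPM (log2 change -3.81 ± 0.53).

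C1qb, a chain of the complement starter C1q (chromosome 4, 136880145 to 136886177), had 18.0 and 22.7 CPM on PLX5622 and 99.3, 71.2 and 73.1 CPM on placebo. Its log2 change was -1.97 ± 0.31 (adjusted p = 0.0474), close to the threshold. The other C1q chains were not called: C1qc had a log2 change of -1.90 ± 0.34 (adjusted p = 0.0683) and C1qa one of -1.65 ± 0.36 (adjusted p = 0.122). The adjusted p-values of all these genes come from the edgeR fit over the 9 striatum libraries.

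Kcnab3 encodes a β subunit of voltage-gated potassium channels (chromosome 11, 69326258 to 69333041). It had 6.57 and 6.78 CPM in MSA striatum on PLX5622, against 24.6, 34.1 and 25.7 CPM on placebo, and its log2 change was -2.05 ± 0.30 (adjusted p = 0.033). In sorted MSA microglia it had 1.13 to 3.05 CPM, whereas the other called genes described above had medians of 1146 CPM (Lpcat2) to 8232 CPM (Cx3cr1) there. In control striatum Kcnab3 had 8.97 and 12.8 CPM on PLX5622 and 14.6 and 11.2 CPM on placebo, which puts the MSA placebo libraries above all the others. Among genes not called, the T-type calcium channel gene Cacna1g and the Kv3 potassium channel gene Kcnc2 had a like pattern. Cacna1g had 19.3 and 17.2 CPM in MSA striatum on PLX5622, against 68.3, 95.8 and 51.9 CPM on placebo, and Kcnc2 had 9.85 and 7.46 CPM, against 51.4, 86.4 and 34.8 CPM (adjusted p = 0.0613 and 0.0681, edgeR). For all 3 channel genes the highest placebo library was number 2, which also had the highest summed level of the thalamic, septal and pallidal neuron list. That list summed to 85.0 and 77.1 CPM on PLX5622 and to 78.9, 361 and 167 CPM on placebo, and its part in these differences was not tested.

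Csf1r, whose product the drug binds, was not called. It had 13.1 and 38.9 CPM on PLX5622, against 121, 140 and 136 CPM on placebo. The groups did not overlap, but the PLX5622 libraries were far apart on the log scale, and the log2 change of -2.31 ± 0.46 had an adjusted p of 0.111 (edgeR). Aif1, which encodes the microglial protein IBA1, had 3.67 and 0.95 CPM on PLX5622 and 8.78, 1.60 and 3.38 CPM on placebo, with overlapping groups (log2 change -1.0 ± 0.77). At these levels the table gives little precision for Aif1.

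Over the whole microglia identity list, 25 of 25 tested members had a negative log2 change, 8 were called and 21 did not overlap between the groups, against 14.4% of all genes. The median log2 change was -2.01, against 0.00 over all genes tested. Summed over the list, the level was 177 and 259 CPM on PLX5622 and 1023, 812 and 789 CPM on placebo, so PLX5622 libraries 2 and 3 held 20.3% and 29.6% of the placebo mean. The share left varied among members. Over the mean of both libraries it ran from 6.12% for Lpcat2 to 57.4% for Tyrobp, the signalling adaptor DAP12, with a median of 24.0%. Tyrobp kept 77.1% in library 2 and 37.6% in library 3, with overlapping groups, and its counted transcript has 559 bases. In 19 of 25 members library 3 had more than library 2, and Csf1r and the adhesion ligand gene Selplg (5.41 and 14.9 CPM on PLX5622, against 33.5, 38.9 and 41.9 CPM on placebo) are among these.

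**Figure D2:**
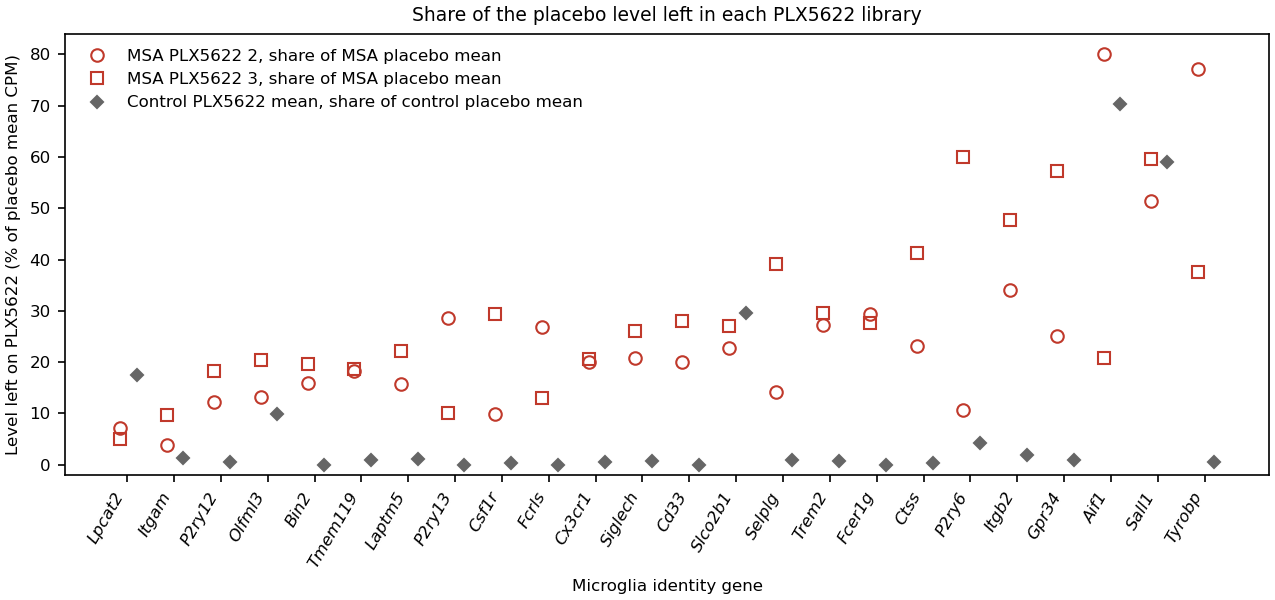
Level left on PLX5622, as a percentage of the mean placebo CPM of the same genotype, for 24 of the 25 microglia identity genes. Red circles and squares are MSA PLX5622 libraries 2 and 3, and grey diamonds the mean of the 2 control PLX5622 libraries. Over all 25 genes the median share left is 27.0% in MSA library 3 and 0.852% in control striatum, and library 2 lies below library 3 for 19 of the 25 genes.

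Other myeloid genes moved less clearly. Of the myeloid signalling list, 15 of 16 members had a negative log2 change and none was called (median -1.55). Dock2, a Rac activator of leukocytes, had 0.966 and 1.09 CPM on PLX5622 and 6.5, 11 and 5.4 CPM on placebo (log2 change -2.85 ± 0.63, adjusted p = 0.13, edgeR). Of the myeloid transcription factors 7 of 8 were negative and none called. Spi1 had 0 and 0.814 CPM on PLX5622, against 10.7, 7.36 and 8.91 CPM on placebo (log2 change -4.23 ± 0.74, adjusted p = 0.0683, edgeR). All 12 tested Fc and pattern receptors were negative, none was called, and the lowest was the high-affinity IgG receptor gene Fcgr1, with 0.386 and 0.543 CPM on PLX5622 and 10.7, 5.12 and 3.92 CPM on placebo.

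Genes that microglia switch on in disease did not follow the identity list. Of 16 tested disease-associated microglia genes 9 had a negative and 7 a positive log2 change, and the median was -0.12. In control striatum their median was -0.14. This list summed to 20902 to 22741 CPM in sorted MSA microglia and to a mean of 2679 CPM in placebo control striatum. For the identity list these values were 70519 to 75639 CPM and 692 CPM. The microglial part of the level in striatum was not tested. Apoe, the apolipoprotein that astrocytes also make, had 1271 and 1498 CPM on PLX5622 and 1692, 1533 and 1540 CPM on placebo (log2 change -0.18 ± 0.20). Spp1, which encodes osteopontin, had 2.90 and 2.71 CPM, against 5.53, 7.20 and 4.46 CPM (adjusted p = 0.405, edgeR). The highest was Ch25h, the cholesterol 25-hydroxylase, with 6.18 and 2.31 CPM on PLX5622 and 0.488, 0.480 and 0.810 CPM on placebo (log2 change 2.80 ± 1.14, adjusted p = 0.323, edgeR). None of these was called.

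Macrophages at the borders of the brain also depend on CSF1R. Only 4 of 10 border-associated macrophage genes were abundant enough to test, 3 with a negative and 1 with a positive log2 change, and none was called. Cd163, a haemoglobin scavenger receptor and the positive one, had 15.6 and 9.09 CPM on PLX5622 and 6.5, 11.5 and 14.2 CPM on placebo, with overlapping groups (log2 change 0.21 ± 0.43). Mrc1, the mannose receptor CD206, had no counts in either PLX5622 library and 0.813, 1.92 and 0.810 CPM on placebo, at least 4.94-fold lower over the group. Cd74, the invariant chain of MHC class II, had 0 and 0.271 CPM on PLX5622, against 2.44, 12.8 and 8.51 CPM on placebo. From 2 counts in the PLX5622 group and 158 in the placebo group, its level on placebo was 50.1 times that on PLX5622. The 95% counting interval of 13.6 to 417 leaves out the spread among libraries. Its adjusted p was 0.1 (edgeR), and all 7 MHC class II genes had a negative log2 change without a call. Csf3r, the receptor of granulocyte colony-stimulating factor and the single testable gene of the monocyte and neutrophil list, had 1.74 and 4.34 CPM on PLX5622 and 20.5, 15.2 and 10.8 CPM on placebo (adjusted p = 0.2, edgeR).

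Over the complement list 8 of 12 tested members were negative, and C1qb was the one called, C1q being made by microglia in brain. C4b, which astrocytes and oligodendrocytes express, had 205 and 165 CPM on PLX5622 and 162, 154 and 117 CPM on placebo (log2 change 0.38 ± 0.20, adjusted p = 0.416, edgeR). In control striatum C4b was the one gene called higher on the diet, with 125 and 121 CPM on PLX5622 and 54.0 and 45.0 CPM on placebo (log2 change 1.35, adjusted p = 0.0256, edgeR). In MSA striatum the groups did not overlap, with 165 CPM as the lowest PLX5622 value and 162 CPM as the highest placebo value. There 12.5% of all genes did not overlap in this direction, and the C4b difference did not pass the test.

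Signals that microglia receive from neurons and glia were not called. Of the list of ligands and drug-related kinases, 8 of 10 had a negative log2 change. Tgfb1, which microglia both make and need, had 0.966 and 4.34 CPM on PLX5622, against 11.2, 16.5 and 13.4 CPM on placebo (log2 change -2.28 ± 0.56, adjusted p = 0.169, edgeR). The fractalkine gene Cx3cl1 had 375 and 1055 CPM on PLX5622 and 751, 1381 and 1284 CPM on placebo, with overlapping groups (log2 change -0.65 ± 0.39). In the lysosome list 12 of 15 members were negative and none called (median -0.40). The saposin precursor gene Psap had 559 and 936 CPM on PLX5622, against 950, 1331 and 1371 CPM on placebo (adjusted p = 0.328, edgeR).

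Oligodendrocyte transcripts, whose cells carry the transgene, were not called in either direction. Mbp, a structural protein of myelin, had 6039 and 4580 CPM on PLX5622 and 5052, 3414 and 2619 CPM on placebo (log2 change 0.55 ± 0.29, adjusted p = 0.419, edgeR). Mobp, another myelin protein gene, had 1938 and 1205 CPM, against 1230, 675 and 439 CPM (log2 change 1.03 ± 0.37), whereas the myelin adhesion molecule gene Mag had 165 and 209 CPM, against 206, 410 and 278 CPM (log2 change -0.65 ± 0.29). The 16 myelin genes were 8 negative and 8 positive.

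Astrocyte genes showed no call. The glutamate transporter gene Slc1a2 had 4212 and 4462 CPM on PLX5622 and 4489, 3701 and 3710 CPM on placebo, with overlapping groups. Gfap, the intermediate filament of reactive astrocytes, had 604 and 478 CPM on PLX5622 and 527, 276 and 180 CPM on placebo (log2 change 0.75 ± 0.38, adjusted p = 0.399, edgeR), and placebo library 1 lay between the PLX5622 libraries. Of 11 tested reactive astrocyte genes 8 were positive (median 0.22). The connexin gene Gjb6 had 62.2 and 66.1 CPM, against 43.2, 35.8 and 23.0 CPM (adjusted p = 0.237, edgeR), and was the highest of the homeostatic astrocyte list.

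Among neurons, the striatal projection neuron genes had a median log2 change of -0.01, with 11 negative and 9 positive. The dopamine receptor gene Drd1 had 190 and 314 CPM on PLX5622 and 200, 232 and 258 CPM on placebo, and Drd2 had 222 and 277 CPM, against 193, 312 and 300 CPM, so the groups overlapped for both. Tac1, the substance P precursor of D1 neurons, had 201 and 243 CPM on PLX5622 and 135, 107 and 125 CPM on placebo (log2 change 0.88 ± 0.21, adjusted p = 0.157, edgeR). All 10 pan-neuronal genes and all 13 interneuron genes had a negative log2 change, with medians of -0.48 and -0.72 and no call. PLX5622 library 2 was the lower one for both lists. Pan-neuronal genes summed to 61.4% of the placebo mean in library 2 and 88.8% in library 3, and interneuron genes to 50.2% and 69.8%. Library 2 also had the lowest share of reads assigned to genes and the highest short-transcript level of the 5 MSA libraries, as given further on. Syn1, a synaptic vesicle phosphoprotein, had 215 and 311 CPM on PLX5622 and 468, 524 and 554 CPM on placebo (log2 change -0.95 ± 0.26, adjusted p = 0.187, edgeR). Sst, the somatostatin gene of an interneuron class, had 69.3 and 105 CPM, against 138, 144 and 184 CPM (adjusted p = 0.203, edgeR).

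Vascular genes were mostly negative, without a call. The endothelial list had 13 of 16 members negative (median -0.83), but its members did not move together. Cdh5, the endothelial cadherin, had 3.86 and 3.12 CPM on PLX5622 and 4.39, 19.8 and 17.2 CPM on placebo (log2 change -1.97 ± 0.64), and Ly6c1 had 36.3 and 34.0 CPM on PLX5622 and 17.7, 22.2 and 15.4 CPM on placebo (log2 change 0.95 ± 0.23, adjusted p = 0.161, edgeR). Placebo library 1 had a Cdh5 level close to that of the PLX5622 libraries. The counted transcript of Cdh5 has 3972 bases and that of Ly6c1 858 bases.

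The higher genes of smallest p did not pass the threshold either. Mt2, a metallothionein, had 262 and 171 CPM on PLX5622 and 99.8, 52.6 and 50.7 CPM on placebo (log2 change 1.70 ± 0.30, adjusted p = 0.0681, edgeR). Cdo1, the cysteine dioxygenase, had 54.1 and 65.8 CPM, against 32.8, 22.6 and 20.4 CPM (log2 change 1.27 ± 0.23, adjusted p = 0.0683, edgeR). Ppp1r2, which encodes an inhibitor of protein phosphatase 1, had 311 and 266 CPM, against 144, 116 and 131 CPM (log2 change 1.17 ± 0.22). The long non-coding RNA gene Gas5, Fam83d and Mctp1 followed with log2 changes of 1.74, 1.96 and 1.09 and adjusted p-values of 0.1, 0.108 and 0.111 (edgeR). The counted transcripts of Mt2 and Gas5 have 551 and 739 bases. Those of Cdo1, Fam83d, Ppp1r2 and Mctp1 have 1746, 2254, 4066 and 4266 bases. The groups did not overlap for any of these 6 genes, which were chosen by their small p. Of all genes, 12.5% did not overlap in this direction. In control striatum the log2 changes of the 6 genes ran from -0.80 for Fam83d to 0.21 for Mt2, and none was called. Among the lower genes without a call, Pik3cd, a PI3-kinase subunit of leukocytes, had 16.6 and 16.7 CPM on PLX5622 and 37.6, 41.0 and 42.0 CPM on placebo, and the integrin gene Itgb5 had 28.2 and 34.3 CPM, against 70.9, 74.6 and 68.3 CPM. Both had an adjusted p of 0.0613, as did the secreted microglial protein gene Olfml3 (2.90 and 4.48 CPM, against 21.8, 22.6 and 21.5 CPM), and the junction protein gene F11r had one of 0.0681 (edgeR).

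**Figure D3:**
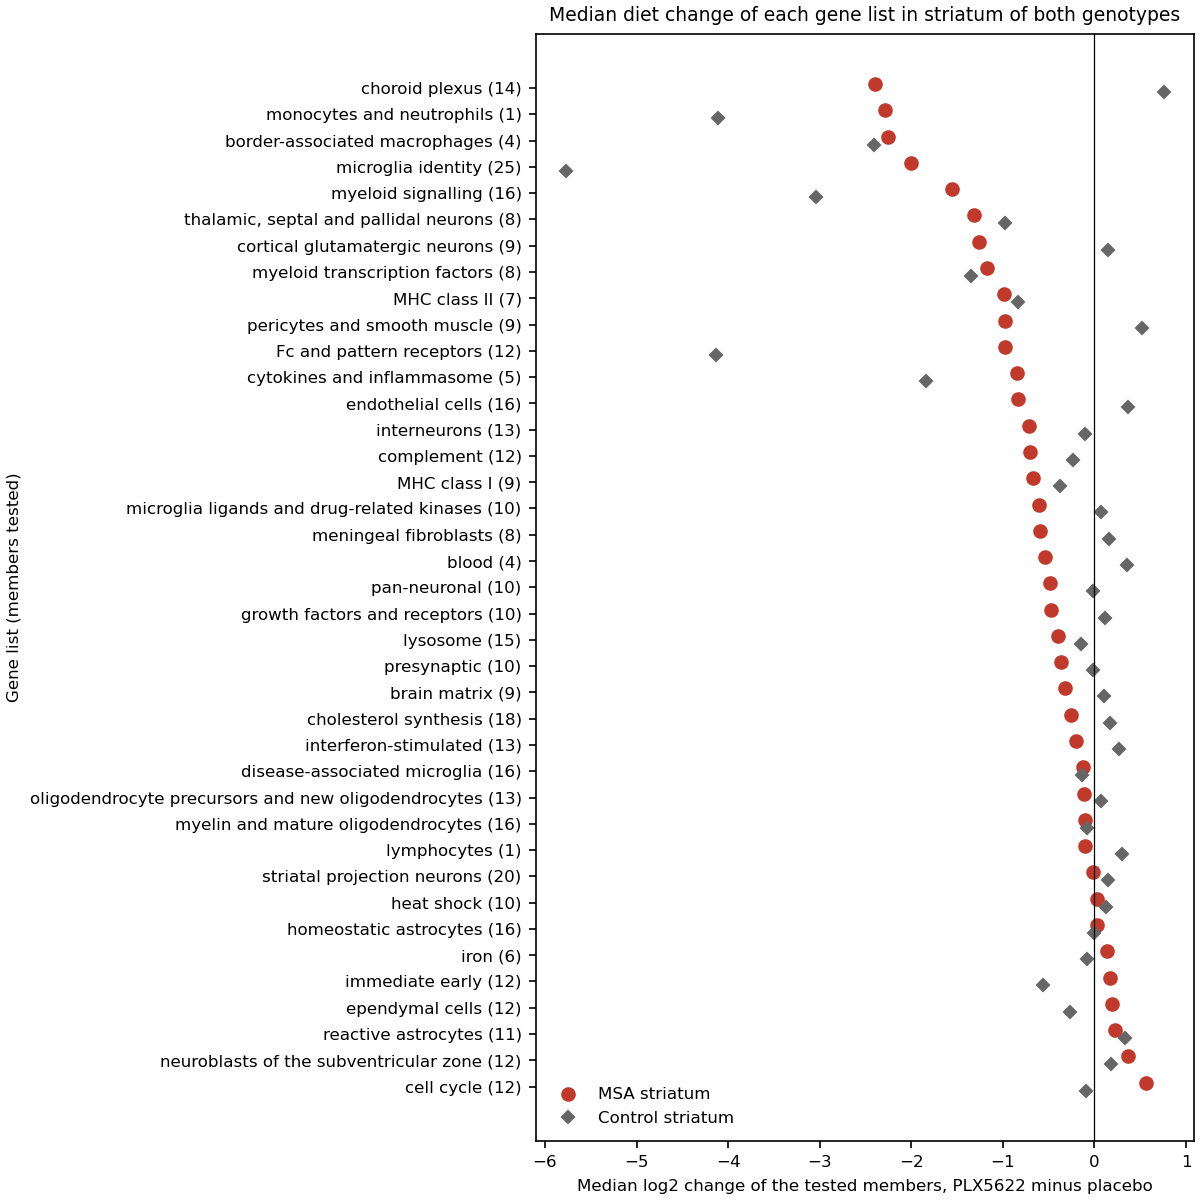
Median log2 change (PLX5622 minus placebo) of the tested members of each gene list, in MSA striatum (red circles) and control striatum (grey diamonds), with genes without counts on PLX5622 set to their bound. The microglia identity list stands at -2.01 in MSA striatum and at -5.77 in control striatum, and the choroid plexus list at -2.39 and 0.76.

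The same diet left less of the microglia identity list in control striatum. The list summed to 177 and 259 CPM in MSA striatum on PLX5622, 24.9% of its placebo mean, and to 67.5 and 50.3 CPM in control striatum on PLX5622, 8.51% of the placebo mean there. The wider set of genes enriched in sorted microglia, described last, did not show this order, but it was chosen with the control placebo libraries. In control striatum 49 genes were called lower (0.329%) and 1 was called higher (0.00672%), of the same 14872 genes. The difference between the genotypes was tested as the interaction of genotype and diet: 13 genes were called (0.0874%), all with a less negative change in MSA striatum. Of the 13, 8 are microglia identity genes and 3 the C1q chains, and all 13 were called lower in control striatum. Csf1r had 13.1 and 38.9 CPM in MSA striatum on PLX5622, but 0.730 and 0 CPM in control striatum on PLX5622. Cx3cr1 had 16.6 and 17.1 CPM in the MSA libraries and 0.522 and 0 CPM in the control libraries on the diet. For Tmem119 the interaction was 4.33 ± 0.45 on the log2 scale (adjusted p = 0.00428), for Laptm5 3.94 ± 0.41 with the same adjusted p, and for Cx3cr1 5.37 ± 0.60 (adjusted p = 0.00463, edgeR). On placebo the identity list summed to 1023, 812 and 789 CPM in MSA striatum and to 710 and 675 CPM in control striatum. Without single libraries the count of interactions was 21 (MSA placebo 1), 8 (MSA placebo 2), 2 (MSA PLX5622 3), 8 (control placebo 1) and 7 (control PLX5622 2), and the calls in control striatum were 33 and 29 without its PLX5622 libraries 1 and 2.

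Single members departed from this order. The share of the placebo level left on the diet was larger in MSA than in control striatum for 21 of 25 identity genes. The other 4 were Lpcat2, Slco2b1, Aif1 and the transcription factor gene Sall1. Of these, Sall1 was named after its values were seen. Its level in sorted MSA microglia was 33.9-fold that in placebo control striatum, against 91.5-fold for Slco2b1 and 109-fold for Lpcat2. Slco2b1 had 8.69 and 10.3 CPM in MSA striatum and 9.18 and 8.08 CPM in control striatum on PLX5622, and Sall1 kept 55.5% and 59.1% of its mean placebo level in MSA and control striatum. Ctss, the lysosomal cathepsin S, showed the opposite picture, with 16.4 and 29.3 CPM in MSA striatum on PLX5622 and 3 counts over both control libraries on PLX5622. In control striatum its placebo level was 319 times that on PLX5622 (95% counting interval 109 to 1549).

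The same comparison in MSA cortex asked whether the diet acted differently in that region. The identity list summed to 223, 257 and 234 CPM in the 3 cortex libraries on PLX5622 and to 694, 833 and 1091 CPM in the 3 on placebo. For the difference between the diet effects in striatum and cortex of MSA mice, fitted on all 30 bulk libraries, no gene of 16080 was called (0%) by edgeR, DESeq2 called none, and 580 genes had an unadjusted p under 0.05 (3.61%). For Csf1r this difference was 0.13 ± 0.61 on the log2 scale, and for Tmem119 it was -0.41 ± 0.47. Kcnab3 had a difference of -2.04 ± 0.45 (unadjusted p of 0.00013, adjusted p = 0.624, edgeR), with 90.5, 81.7 and 78.2 CPM in MSA cortex on PLX5622 and 94.0, 89.1 and 69.7 CPM on placebo. These intervals are wide, and the test does not show that the regions respond alike.

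**Figure D4:**
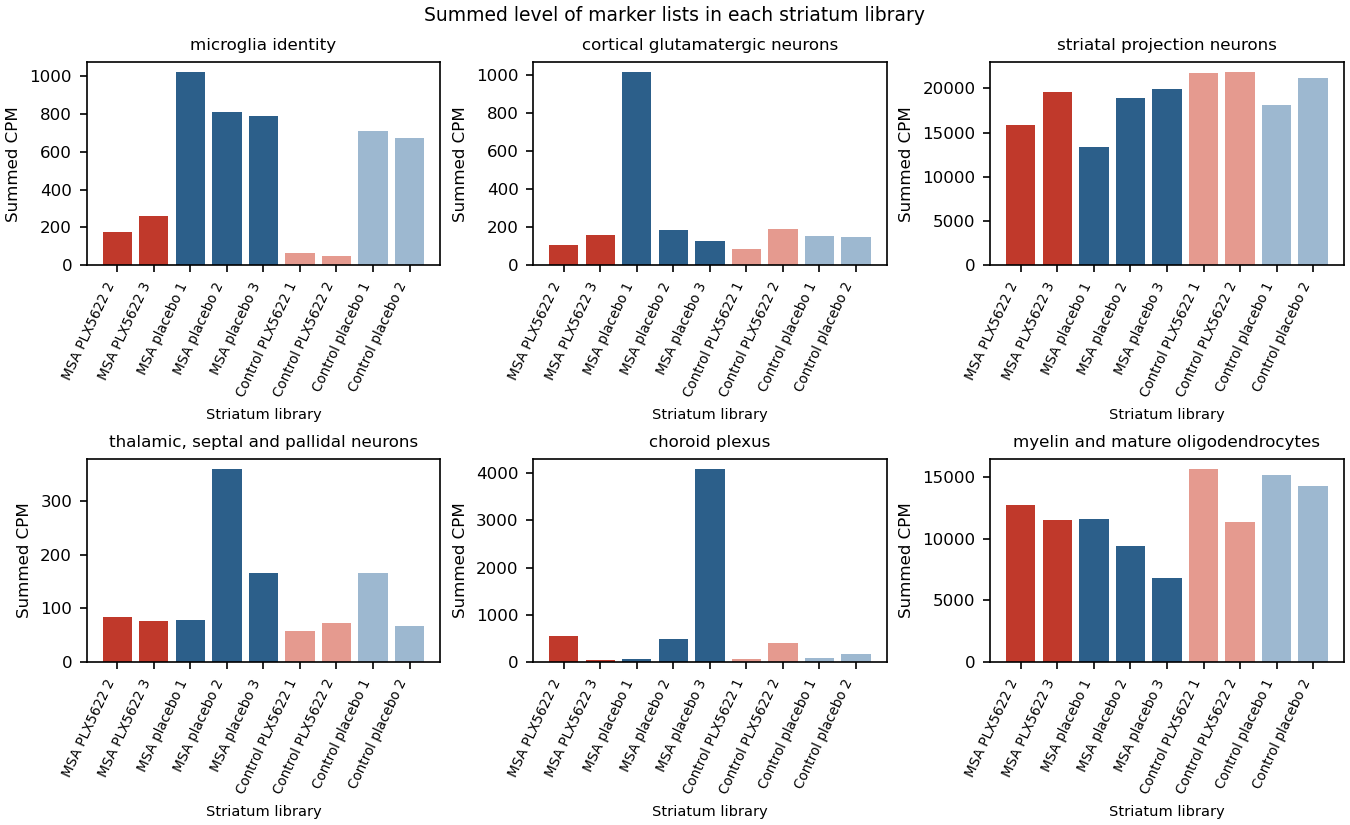
Summed CPM of 6 marker lists in each of the 9 striatum libraries, with MSA PLX5622 (red), MSA placebo (dark blue), control PLX5622 (light red) and control placebo (light blue). Cortical glutamatergic genes sum to 1019 CPM in MSA placebo library 1 and choroid plexus genes to 4091 CPM in MSA placebo library 3, above all other libraries, while the identity list is lower in each PLX5622 library than in each placebo library.

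The libraries differed in dissection. Cortical glutamatergic genes summed to 110 and 161 CPM on PLX5622 and to 1019, 187 and 126 CPM on placebo, and placebo library 1 had the lowest striatal projection neuron sum, 13409 CPM, against 15822 to 19948 CPM in the other 4. Slc17a7, the vesicular glutamate transporter of cortical neurons, had 29.6 and 75.0 CPM on PLX5622 and 670, 77.1 and 43.6 CPM on placebo. Choroid plexus genes summed to 555 and 47.8 CPM on PLX5622 and to 70.4, 482 and 4091 CPM on placebo. Ttr, the thyroid hormone carrier made by choroid plexus, had 450 and 21.0 CPM on PLX5622 and 50.4, 374 and 3426 CPM on placebo, so a single placebo library set its log2 change of -2.43 ± 2.21. Slc17a6, the glutamate transporter of thalamic neurons, had 2.51 and 1.90 CPM on PLX5622 and 3.74, 36.6 and 7.56 CPM on placebo.

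With the striatal minus cortical score of each library as a covariate 13 genes were called lower and 3 higher, and with a choroid plexus score 10 lower and none higher. All 11 called genes remained under the first score and 9 under the second. Counts assigned to genes were 5177520 and 7371556 in the PLX5622 libraries and 6150348 to 7403475 in the placebo libraries. PLX5622 library 2 had 65.5% of its header total assigned to genes, against 74.3% to 75.7% in the other 4 MSA libraries. With the assigned share as a covariate no gene was called (at an unadjusted p under 0.05, 617 lower and 384 higher), and the median log2 change of the identity list was -1.91.

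**Figure D5:**
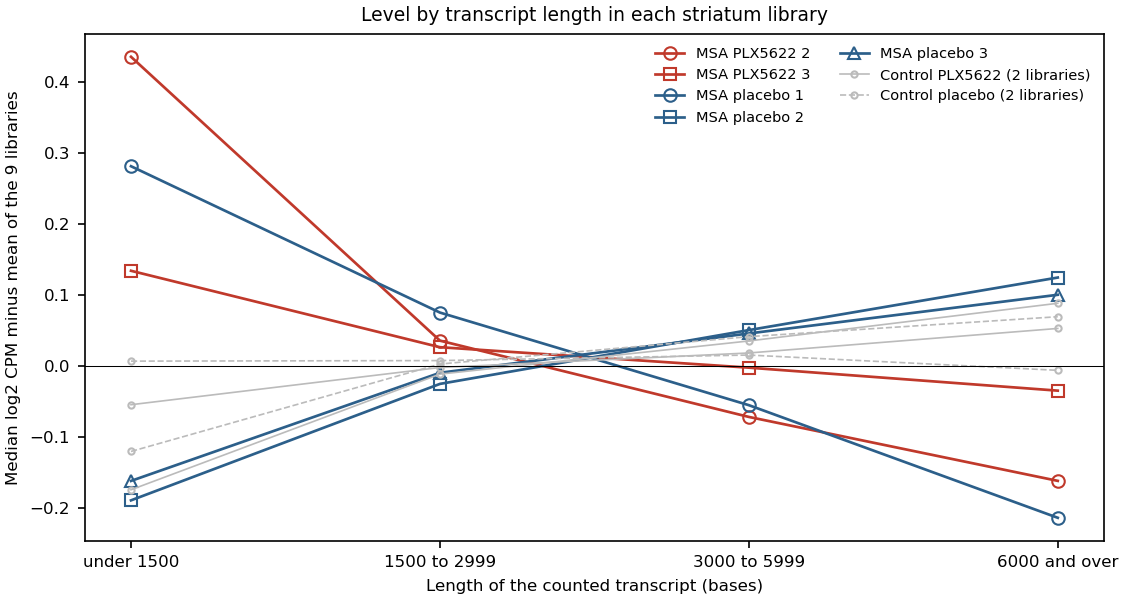
Median log2 CPM, relative to the mean of the 9 striatum libraries, of tested genes in 4 classes of transcript length. MSA PLX5622 libraries are red, MSA placebo libraries blue and control libraries grey (dashed on placebo). PLX5622 library 2 and placebo library 1 are highest for transcripts under 1500 bases, and placebo libraries 2 and 3 are the lowest of the 5 MSA libraries there.

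Levels also followed transcript length. The median log2 level of genes under 1500 bases minus that of genes of 6000 bases or more was 0.597 and 0.169 in the PLX5622 libraries and 0.495, -0.314 and -0.262 in placebo libraries 1, 2 and 3, against -0.263 to 0.0129 in control striatum. The median log2 change on PLX5622 was 0.30 for genes under 1500 bases and -0.13 for those of 6000 bases or more. With length-dependent level as a covariate 18 genes were called lower and 2 higher, and all 11 remained. Without placebo library 1 the calls increased to 333 lower and 491 higher. In that comparison 10.5% of genes under 1500 bases were called higher, but 0.686% of those of 6000 bases or more. The part of transcript length in these calls was not tested further.

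Without placebo library 1, all 11 genes remained called and more myeloid genes joined them. Over all 14780 genes tested there, 2.25% were called lower and 3.32% higher. Of the 25 microglia identity genes 16 were called lower, with Csf1r and Olfml3 among them, and all 3 C1q chains. Outside the myeloid lists, 7 of 16 endothelial genes were called lower. Cdh5 then had a log2 change of -2.39 ± 0.46 (adjusted p = 0.0247, edgeR). Mobp, Gfap and Tac1 were called higher in that comparison, and Mobp had a log2 change of 1.51 ± 0.30. These lists are set here beside the length gradient given above, in which both remaining placebo libraries lie at the low end.

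Calls also rested on both PLX5622 libraries. Without either one no gene passed the threshold, with 807 lower and 483 higher genes at an unadjusted p under 0.05 without library 2 and 1572 lower and 1470 higher without library 3. All 11 genes kept a negative log2 change in each of these comparisons. Without placebo library 2 the count was 4 lower, without placebo library 3 it was 9, and without either control PLX5622 library it was 17. Over genes enriched at least 10-fold in sorted MSA microglia (mean of 50 CPM or more there), a set chosen after seeing the data, 503 of 596 tested had a negative log2 change and 312 did not overlap between the groups in the lower direction, against 14.4% of all genes, with a median of -0.77. Summed over all 637 members of the set, the level was 68.3% and 64.2% of the MSA placebo mean in MSA PLX5622 libraries 2 and 3. In control striatum the tested members had a median log2 change of -0.55. Over all members control PLX5622 libraries 1 and 2 held 70.6% and 73.8% of the control placebo mean. A low level in these same control placebo libraries helped a gene into the set, so the control and MSA values are not like for like. The set summed to 13148, 12099 and 15112 CPM in MSA placebo libraries 1, 2 and 3. Library 3 also had the highest choroid plexus sum (4091 CPM), and the part of choroid plexus RNA was not tested. The difference between the genotypes in this set was not tested as a whole.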

How the data were processed

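Poly(A) RNA of striatum was compared between 2 MSA libraries on PLX5622 and 3 on placebo. The values are raw counts of reads, deposited by the authors without scaling for 24940 genes with 1 RefSeq transcript each on mm10. STAR, HOMER and DESeq2 are named in the submitters' processing notes, without versions or roles; the strand setting of the counting is not given. A deposited TPM table was not used, because counts carry the depth.

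Groups were taken from the titles. The 9 striatum libraries were fitted together: genes kept with filterByExpr (minimum count 10), TMM scaling, and edgeR 4.0.16 (R 4.3.3) robust quasi-likelihood F tests, 2-sided, with Benjamini-Hochberg adjusted p under 0.05 as threshold. The regional difference used all 30 bulk libraries. CPM are counts per 1000000 assigned counts. Folds against a group without counts use a floor of 3 counts over the group; floors and intervals cover counting error only.

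The 39 lists (486 genes) and the members were chosen with earlier results of these data known. Lists are described by counts and medians, without a test. Named genes are 10 marker genes, all called genes, the 6 of smallest p each way at a mean log2 CPM of at least 2, members of a list of highest level or lowest or highest change, and 8 interaction genes; lists near 0 are given without names. Some single genes of this rule are not reported here, but stay in the counts. The fit was tested on simulated counts with 200 changed genes of 14872. At a log2 change of 1 it recovered 7% of them, and 22.2% of its calls were false. At a log2 change of 2 it recovered 76%, with 6.75% of calls false. A gene without a call may therefore still have changed. No pair of libraries in a group was a copy: the chi-square of their counts was 7.95 or more per degree of freedom. Alternatives were RLE scaling, DESeq2 1.42.0, no filter, a block for the replicate number, leaving out each library, other sets of libraries, and covariates for assigned share and dissection. A covariate for transcript length and leaving out both libraries of highest short-transcript level were chosen after seeing the data.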

Additional observations from a re-analysis of the deposited data

Results flagged for a closer look

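The effect of the diet differed between MSA and control striatum for 13 genes, by the interaction of genotype and diet in the edgeR fit, and the change was less negative in MSA striatum for each. The 8 of smallest p had interaction values, on the log2 scale, of 4.33 for Tmem119, 3.94 for Laptm5, 6.06 for C1qb, 5.37 for Cx3cr1, 6.53 for Ctss, 6.02 for C1qa, 4.92 for C1qc and 4.89 for Selplg. The 2 control libraries on PLX5622 hold 3 counts for C1qb and for Ctss and 4 for C1qa, so these fitted values depend on the prior count. Both libraries carry a no-treatment tag against their title, and their identity list sums were 67.5 and 50.3 CPM, below those of every placebo library.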

How the results depend on the processing

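Every one of the 11 called genes had a negative log2 change under each of the 21 alternatives. All 11 remained called with RLE scaling, DESeq2, no low-count filter, the striatal minus cortical score, the length covariate and without the control PLX5622 libraries. The counts of genes called lower and higher moved further. They were 208 and 60 with DESeq2, 74 and 15 without a low-count filter, 31 and 1 with all 30 bulk libraries and 12 and 1 with the 2 MSA striatum groups alone (10 of the 11 remained in each, and the highest adjusted p among the 11 was 0.0595 and 0.1, edgeR), 17 and 0 without the control PLX5622 libraries, 0 and 0 with the assigned share as a covariate, 13 and 3 with the dissection score, 18 and 2 with the length covariate, and 11 and 4 without both libraries of highest short-transcript level, where 5 of the 11 remained. Leaving out single striatum libraries gave 0 to 333 genes lower and 0 to 491 higher: 4 of the 11 remained without placebo library 2, 7 without placebo library 3, and none without either PLX5622 library, which leaves a lone sample assumed to vary like the other groups.

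With the replicate number as a block 557 genes were lower and 792 higher, and 44 interactions were called. The groups share the numbers 2 and 3, whose deviations had correlations of -0.117 and -0.007. With 2 PLX5622 libraries the deviations from their mean mirror each other, so these correlations cannot decide whether equal numbers mean shared animals. The labels do not tell it either.

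Calls in control striatum were 99 with DESeq2 and 84 without a filter, and 29 to 57 with single libraries left out. Interaction calls were 22 with DESeq2, 24 without a filter, 8 with the choroid plexus score and 23 without both libraries of highest short-transcript level, and 2 to 21 with single libraries left out; the lowest was without MSA PLX5622 library 3. The regional difference gave 0 calls throughout.

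The sign turned for genes that were not called: Drd1 (-0.24 to 0.47 with single libraries left out), Drd2 (0.14 with assigned share, 0.013 with the choroid plexus score, 0.28 with length, and -0.27 to 0.071 with single libraries left out), Ttr (1.69 with length, -5.9 to 0.16 with single libraries left out), Cx3cl1 (0.091 with assigned share), Cd163 (-0.30 with assigned share, -0.49 without both libraries of highest short-transcript level, and -0.22 to 0.57 with single libraries left out) and Slc17a7 (0.33 without both libraries of highest short-transcript level). The cause of these moves was not tested. For genes at or near 0 counts, such as Mrc1 on PLX5622, the fitted change depends on the prior count and only a bound on the fold can be given.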
